A study of Mus musculus with 24 samples.

Results

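The probes described here were designed against intergenic transcribed regions and carry a chromosome range and a strand in place of a gene name. They were chosen by that form of name alone: every probe that was not a control and was named by a range ending in R (reverse strand) or F (forward strand) was taken, apart from 27 probes of 1 interval of chromosome 19 that is not reported here. This gave 16154 of the 55681 non-control probes of the array. They carried 4600 stranded region names over 3534 regions, 1066 of which were named on both strands, and names that overlapped on a strand merged into 3360 loci. Probes of one name or locus share their target and are not independent of each other.

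Many such regions give rise to long noncoding RNAs, transcripts that are often spliced and polyadenylated but hold no long open reading frame. Members of this class are known for low levels, for tissue-restricted expression, islets included, and for lying near the genes of transcription factors. A region between annotated genes can also hold the unannotated end of a neighbouring messenger RNA or a transcript from its promoter or an enhancer, and a probe reads only the 60 bases that it matches.

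The study compared pancreatic islets from males of 2 inbred strains, C57BL6/J, called BL6 here, and C57BLKs/J, called BLKS, with 1 Cy3-labelled array per mouse and 24 mice in all. Mice were 8 weeks old at entry. In each strain 4 mice ate chow (18% of energy as fat), 4 ate a high-fat diet (HFD, 42% of energy as fat) and 4 ate that diet with pioglitazone, a drug that activates PPAR-gamma, at a dose of 140 mg per kg of diet. Islets came from pancreas perfused with collagenase. The sample labels give 12 weeks of feeding and the series text gives 16, and the time is not known better than that. The labels link no mouse of one group to a mouse of another. Comparing the strains and their response to the diet is the purpose that the series title states.

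Sequences of the probes on which the results turn are given 5′ to 3′ on the transcribed strand, with the mm9 position and strand of the probe. Capitals mark the polyadenylation hexamer AATAAA where a probe holds one. The first 4 probes were among those with the largest excess in BLKS, and the next 3 are from the regions of the largest deficits.
Slc7a5-side probe, chr8:124397777-124397836, minus strand: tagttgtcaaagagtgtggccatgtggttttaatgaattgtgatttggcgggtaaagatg
Btg1-side probe, chr10:96098532-96098591, plus strand: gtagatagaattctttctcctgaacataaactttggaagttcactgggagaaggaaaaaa
Hspb1-side probe, chr5:136371894-136371953, minus strand: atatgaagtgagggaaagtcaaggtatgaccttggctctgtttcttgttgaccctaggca
Hmgb2-side probe, chr8:59994598-59994657, plus strand: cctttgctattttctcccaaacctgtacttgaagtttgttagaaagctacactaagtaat
Zfp820-side probe, chr17:22015250-22015309, minus strand: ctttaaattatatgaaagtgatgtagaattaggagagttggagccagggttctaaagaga
Neighbour of the Zfp820-side probe, chr17:22015310-22015369, minus strand: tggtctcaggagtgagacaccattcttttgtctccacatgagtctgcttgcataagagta
Hnrnpr-side probe, chr4:135915135-135915194, plus strand: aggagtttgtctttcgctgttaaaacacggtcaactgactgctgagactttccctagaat
The last 5 are from regions that passed the test for the diet or the drug.
Npas4-side probe, chr19:4994396-4994455, minus strand: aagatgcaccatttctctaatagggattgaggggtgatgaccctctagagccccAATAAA
Mcl1-side probe, chr3:95457377-95457436, minus strand: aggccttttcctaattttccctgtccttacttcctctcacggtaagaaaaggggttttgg
Serbp1-side probe, chr6:67171313-67171372, minus strand: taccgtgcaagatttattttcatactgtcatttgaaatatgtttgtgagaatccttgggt
Gm2115-side probe, chr7:91729316-91729375, plus strand: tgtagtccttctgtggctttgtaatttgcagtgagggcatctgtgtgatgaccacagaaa
Sertad4-side probe, chr1:194659370-194659429, minus strand: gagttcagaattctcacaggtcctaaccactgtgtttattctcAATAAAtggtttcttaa

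The hexamer AATAAA was in 3.92% of the region probes, against 12.6% of the other probes and 10.1% of all non-control probes. Its reverse complement TTTATT was in 3.01% of the region probes and 4.04% of the others. The median GC content was 45.0% for region probes and 41.7% for the others. All probes had 60 bases, no sequence occurred more than once, and the 16036 with a stated position lay inside their region on the named strand. These are properties of the design, and hybridisation strength changes with GC content, so no level of one probe is set against that of another. The median region was 7329 bp long, within a range of 62 to 7128487 bp. Of the 4600 names, 825 held a probe of a named gene inside their range and 526 held one on the same strand. Of those 526, 189 held a gene that RefSeq lists as protein-coding and 203 held a long noncoding RNA gene and no protein-coding one. For such names the word intergenic does not match current gene models. Exons, introns and UTRs were not assigned, because no mm9 annotation was used. The nearest probe of a named gene served as landmark instead.

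Fewer of these probes than of the other probes gave a signal in islets. A probe was called detected on an array when the scanner software marked it well above background. Of 16130 measured region probes, 7332 (45.5%) were detected on none of the 24 arrays and 3574 (22.2%) on all of them. For the other probes those shares were 24.3% and 53.5%. Detection on at least 4 arrays, the limit for testing, was reached by 6344 region probes (39.3%) from 2922 names and 2220 loci, against 66.8% of the other probes. Where a region was named on both strands, both strands held a tested probe in 564 of 1066 regions, 1 strand in 382 and neither in 120. Probes of one region often differed in detection: of 3368 names with at least 3 measured probes, 563 had all of them tested, 1727 some and 1078 none.

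The number of region probes detected on an array overlapped between all groups. The lowest, median and highest counts were 5168, 5423.5 and 5673 in BL6 on chow, 4887, 4948 and 5272 in BL6 on HFD, and 4552, 5402.5 and 5624 in BL6 with pioglitazone. In BLKS they were 5016, 5192 and 6533 on chow, 5087, 5499 and 5533 on HFD, and 4870, 5372.5 and 5609 with pioglitazone. The highest count of all, 6533, came from BLKS chow mouse 3, which shared slide 3, scanned on a second day, with BL6 pioglitazone mouse 4 at 5524. The other 3 mice of its group had 5016 to 5331.

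The mean log2 level of 34 islet genes lay between 4.82 and 5.53 over the arrays. Group means were 5.27 to 5.33 in BL6 and 5.06 to 5.18 in BLKS. Of these genes, 16 were lower in BLKS (background 34.2%) and 8 higher (background 30.8%), with a median difference of -0.17. Acinar markers ranged from -2.9 to 7.59 and lymphocyte markers from -3.72 to 2.61 between arrays. Between strains, 6 of 9 ductal markers were higher in BLKS (median log2 difference 1.14) and 10 of 13 macrophage markers were lower (median -0.67). In bulk islet RNA, fewer cells of a type and less RNA per cell cannot be told apart, and the part of these markers in any strain difference below was not tested. BL6 chow and HFD arrays shared slide 1, and BLKS HFD and pioglitazone arrays shared slide 4. BL6 pioglitazone and BLKS chow arrays were on slides 2 and 3, so only those slides held both strains.

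Most tested region probes differed between the strains. Levels are log2 processed intensity relative to the 75th percentile of the array, and differences are BLKS minus BL6 averaged over the 3 diets, with their standard error (SE). Of 6344 tested region probes, 3962 (62.5%) differed between strains in the limma fit at an adjusted p under 0.05, beside 65.0% of all probes tested, so the share was close to the background. The directions were less even. 1495 region probes were higher in BLKS (background 30.8%, region probes 23.6%) and 2467 were lower (background 34.2%, region probes 38.9%). The median difference was -0.13 for region probes and -0.02 for the others. Of called region probes 37.7% were higher in BLKS, against 49.6% of the other called probes, and lower calls outnumbered higher ones under each of the other scalings. That share was 41.3% after quantile normalization and 42.8% in the authors' deposited value table, and 31.0% with the percentile taken over probes detected on all arrays, which moved the median of all probes to -0.11. Without a filter on detection it was 30.3%. On the scale of the main fit, the lowest well-detected signal of an array averaged -4.66 in BLKS and -4.53 in BL6. Values near background thus lay lower in BLKS, and region probes were near background more often than the others. The part of this offset in the lean towards lower calls was not tested.

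A called difference over 1 on the log2 scale was found for 1256 of them (19.8%, background 16.2%), from 664 names and 544 loci. Of these, 507 were higher in BLKS (background 8.66%) and 749 lower (background 7.56%). The share ran from 11.5% on chromosome 14 to 27.7% on chromosome 8, whereas the other probes ran from 11.4% to 17.9% over the chromosomes. The 12 BLKS arrays did not overlap the 12 BL6 arrays for 954 region probes (15%, background 19.6%). The median SE was 0.13 for region probes and 0.09 for the other probes. Restricted to slides 2 and 3, where BLKS mice on chow met BL6 mice on pioglitazone, 1893 of 6344 region probes were called. The share over all probes is not given for those slides, and strain and diet cannot be told apart there.

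Some region probes were detected in 1 strain only. Detection on all 12 BLKS arrays and no BL6 array was found for 49 probes of 39 names (0.772% of those tested, background 0.455%). The reverse was found for 32 probes of 28 names (0.504%, background 0.223%). A fold against a strain without detection is a bound. It sets the bright strain's mean against the lowest well-detected signal of each array or the probe's own signal, whichever was higher. The bound holds for the scaling of the main fit only, and some other settings gave smaller differences. An adjusted p printed beside a bound is from the fit to the measured values, undetected ones included, and does not test the bound. Probes seen in 1 strain only reached the limit for testing through that strain and were named for this pattern or for their size. Their p-values are therefore no separate support. For probes seen only in BLKS it ran from at least 1.51-fold to at least 22.0-fold (median 3.3), and for those seen only in BL6 from at least 2.07-fold to at least 21.7-fold (median 3.33).

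The largest excess in BLKS lay on chromosome 8, on the strand of Slc7a5, which encodes the light chain of an amino acid transporter. The probe at chr8:124397777-124397836, in the reverse-strand region chr8:124355710-124401160, had levels of -6.81 (lowest), -6.28 (median) and -4.2 (highest) in BL6 and of -0.56, -0.02 and 0.44 in BLKS. All BLKS arrays lay far above all BL6 arrays, and none of the BL6 arrays detected it. Its level was at least 22.0-fold higher in BLKS (means -5.93 and -0.04, adjusted p = 2.9e-15). A probe of a second name, chr8:124397412-124398022, overlaps it and measures almost the same bases, with a median of -5.44 in BL6 and 0.33 in BLKS (adjusted p = 4.5e-17). It was detected on 1 of 12 BL6 arrays, so most BL6 values are near background and the size is not well measured. At 124397945 a further probe was at least 12.4-fold higher in BLKS, and those at 124397508 and 124397602 differed by 5.45 and 5.3. Both had been detected in some BL6 mice, on 6 and 4 of 12 arrays. The same region's probe at 124396059, outside that cluster, differed by 0.29 (adjusted p = 0.054). On the opposite strand the 3 tested probes differed by -0.21, -0.04 and 0.51, so the large difference was found on the reverse strand alone among the 9 probes tested within 20 kb. Slc7a5, whose probe lies 7300 bp upstream of the first probe, was itself higher in BLKS by 0.73 ± 0.06 (adjusted p = 1.7e-09).

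A second group lay downstream of Btg1, which encodes an antiproliferative protein, on its strand. The probe at chr10:96098532-96098591, in region chr10:96098058-96098623, read -6.69, -5.75 and -4.42 in BL6 and -0.61, -0.01 and 0.29 in BLKS. No BL6 array detected it, and it was at least 19.9-fold higher in BLKS (means -5.78 and -0.13, adjusted p = 5.8e-15). Further on, region chr10:96103732-96103867 was at least 16.5-fold higher. Of 11 region probes tested within 20 kb, 10 were higher in BLKS and 1, the opposite-strand probe at 96084655, was lower (-0.17, adjusted p = 0.015). Within the first region the probe at 96098125 differed by only 0.54 ± 0.07 and the one at 96098468 by 5.49 ± 0.19, so the difference was uneven along 566 bp. The Btg1 probe, 13115 bp away, was higher in BLKS by 2.43 ± 0.23 (adjusted p = 1.3e-08).

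Further regions higher in BLKS lay near Hspb1 and near Hmgb2. Region chr5:136371885-136372424 is 6469 bp from Hspb1, which encodes a small heat shock protein, on the opposite strand. The printed probe read -6.88, -6.37 and -5.62 in BL6 and -1.82, -1.66 and -1.25 in BLKS, at least 7.59-fold higher (adjusted p = 5.1e-17), and its 3 tested probes were all higher. The adjoining probe was at least 5.44-fold higher, and the next, detected on 11 BL6 arrays, by 1.5 ± 0.1 on the log2 scale. Hspb1 itself was higher by 3.3 ± 0.23. Region chr8:59994102-59994797 lies 1610 bp downstream of Hmgb2, which encodes a chromatin protein of the high mobility group. It read -6.83, -6.45 and -4.47 in BL6, where 1 array detected it, and -1.86, -1.75 and -1.4 in BLKS (adjusted p = 2.5e-12). The groups were far apart, but 11 of the 12 BL6 values are near background and give no exact size. All 7 region probes tested within 20 kb were higher in BLKS, as was Hmgb2, by 2.37 ± 0.24.

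In other places the neighbouring gene did not share the difference. Region chr8:26870059-26870530, 7642 bp from Bag4 on the opposite strand, read -5.03, -4.41 and -3.91 in BL6 and -0.23, 0.24 and 0.89 in BLKS. The groups were far apart (4.71 ± 0.13, detected on 6 of 12 BL6 arrays, adjusted p = 2.4e-17), whereas Bag4, a co-chaperone gene, was slightly lower in BLKS (-0.18 ± 0.07, adjusted p = 0.027). This region had 1 tested probe, and the 3 region probes tested within 20 kb ran from 0.1 to 4.71. A base difference under that probe and a difference in RNA level cannot be told apart. Region chr1:38892041-38893543 read -6.68, -4.95 and -4.03 in BL6 and -0.96, -0.73 and -0.48 in BLKS, without overlap and with detection on 2 of 12 BL6 arrays, while Chst10, a sulfotransferase gene 28706 bp away, differed by 0.22 ± 0.12 (adjusted p = 0.1).

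The largest deficit in BLKS was on chromosome 17, in a cluster of zinc finger genes. The probe at chr17:22015250-22015309, in the reverse-strand region chr17:22013350-22095775, read -0.78, -0.16 and 0.12 in BL6 and -6.99, -6.8 and -5.09 in BLKS. It was detected on every BL6 array and on no BLKS array, and was at least 21.7-fold lower in BLKS (means -0.22 and -6.64, adjusted p = 8e-18). The probe that starts 1 base after its end differed by -2.1 ± 0.06 and one at 22016374 by -0.98 ± 0.12, so directly adjoining 60-base targets gave differences of very unlike size. Zfp820, whose nearest probe is 60321 bp away on the same strand, was lower by 2.07 on the log2 scale (-2.07 ± 0.11). Further along the chromosome, around region chr17:22420025-22457650, all 7 region probes tested within 20 kb were lower (from -3.99 to -0.6), with -0.49, -0.17 and 0.02 in BL6 and -4.7, -4.19 and -3.72 in BLKS for the largest. Zfp944, the nearest named gene, was lower as well (-1.07 ± 0.07). A probe of each of these 2 regions shares a run of 20 bases with the other, so signal from related copies cannot be told apart.

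A deficit over several adjoining probes was found near Hnrnpr, which encodes an RNA-binding protein. The probe at chr4:135915135-135915194, in region chr4:135911688-135915355, read -1.87, -0.56 and -0.13 in BL6 and -6.56, -5.85 and -4.55 in BLKS, at least 16.0-fold lower (means -0.64 and -5.73, adjusted p = 2.6e-14). Its direct neighbour was at least 10.9-fold lower, and the overlapping region chr4:135896689-135918414 at least 10.1-fold. Of 11 region probes tested within 20 kb, 10 were lower in BLKS, and the remaining one differed by 0.07 (adjusted p = 0.58). Hnrnpr, 18578 bp away on the same strand, was slightly higher in BLKS (0.23 ± 0.07, adjusted p = 0.0073).

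The other large deficits rested on fewer probes. Region chr9:68349343-68411643 had no named gene probe within 100 kb and read -2.72, -2.19 and -1.59 in BL6 and -6.83, -6.68 and -6.27 in BLKS, at least 5.5-fold lower (adjusted p = 2.5e-18). Around it, 7 region probes were lower and 2 higher, by 0.92 and 1.2. In region chr12:55844075-55898175, near the sorting nexin gene Snx6, the probe at 55857943 read -0.24, 0.09 and 0.32 in BL6 and -4.41, -3.76 and -3.21 in BLKS (-3.78 ± 0.09, adjusted p = 3.1e-18). The other 4 probes of that name differed by only -0.76 to -0.26. Region chr11:120079199-120130099 had 1 probe at least 7.14-fold lower while the other 3 differed by 0.03, -0.73 and -1.04. In region chr15:41288197-41522572 the one tested probe was at least 6.34-fold lower. A base difference between the strains under a probe and a difference in RNA level cannot be told apart for these single probes.

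The regions with many probes named here were picked by the direction of their calls. The first were those with most probes called in 1 direction and the last those called in both. How even they are follows from that choice. All 10 tested probes of chr7:99879368-99889978, a reverse-strand region that contains the gene 4632427E13Rik, were lower in BLKS (median -1.88, from -2.58 to -1.07). The same held for chr12:72103832-72116875 (median -1.02, from -2.08 to -0.59) and for chr16:43623581-43642715 (median -0.46, from -0.55 to -0.32). In chr4:129497990-129515290, which contains 5830469G19Rik, all 10 were higher (median 0.85, from 0.78 to 1.13). Several of these probes overlap, such as those starting at 129498604 and 129498610, and read almost the same bases. Of 983 names with at least 2 called probes, 817 had them all in 1 direction and 166 (16.9%) in both. In chrX:90997595-91009570, 7 of 10 probes were called, 1 of them higher, by 1.26, and 6 lower. In chr14:65431652-65437902, which contains Hmbox1, 3 of 10 were called, at 0.25, -0.35 and -0.74.

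Close to a gene, region and gene tended to share their direction. Among region probes that differed by over 1, and whose nearest named gene on the same strand also differed between strains, 91 of 92 within 1 kb had the sign of the gene. That number was 148 of 191 (77.5%) at 1 to 10 kb and 148 of 210 (70.5%) at 10 to 100 kb. On the opposite strand it was 10 of 12 (83.3%), 60 of 87 (69.0%) and 66 of 137 (48.2%). Of the 92 within 1 kb on the same strand, those placed on a side differed little by position, with 24 of 25 downstream and 45 of 45 upstream. The rest of the 92 were placed on neither side. At 1 to 10 kb, 114 of 153 (74.5%) downstream and 34 of 38 (89.5%) upstream shared the sign. These shares describe the array and were not tested, since probes of a locus are not independent.

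Regions near known islet genes were sought among probes detected on every array, a limit that 22.2% of measured region probes met. How many islet genes have any region probe within 100 kb is not given, so the count has no background. Of 34 islet genes, 1 had a region probe detected on all arrays within 100 kb: region chr5:29779847-29784383, 15418 bp from Mnx1, which encodes a transcription factor of beta cells. It read -0.58, -0.45 and -0.35 in BL6 and -1.16, -1.02 and -0.86 in BLKS (-0.55 ± 0.04, adjusted p = 2.9e-10), without overlap. Nom1 was the nearest gene on the array. Of 59 named noncoding RNA genes chosen for comparison, 23 had a tested probe, 8 of which were higher in BLKS and 5 lower (background 65.0% in either direction). Snhg1, Snhg5 and Snhg12, hosts of small nucleolar RNAs, were higher by 0.97, 1.05 and 0.99, Snhg6 and Snhg7 were lower (-0.91 and -0.7), and the imprinted Meg3, bright in islets, differed by -0.03 ± 0.1 (adjusted p = 0.8).

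High-fat diet changed very few regions. In BL6, 2 of 6344 region probes passed (0.0315%, background 0.0336%), 407 having an unadjusted p under 0.05. Of the 2, 1 was higher (background 0.0122%) and 1 lower (background 0.0214%). In BLKS 1 passed and was higher on HFD (background of higher calls 0.00916%). That is 0.0158% of region probes, beside a background of 0.0427% in either direction, with 610 at an unadjusted p under 0.05. Averaged over both strains 1 passed, lower on HFD (background of lower calls 0.0153%, in either direction 0.0183%), with 455 at an unadjusted p under 0.05. Each of these shares rests on 1 or 2 probes, too few to set it apart from the background. No region probe passed for a strain difference in the diet response (background 0.0%, limma), and 608 had an unadjusted p under 0.05. Each of these counts lay between 0 and 5 when a mouse was left out. Median acinar marker differences were 1.98 in BL6 and 2.73 in BLKS for HFD minus chow, though none of the 18 tested acinar genes passed, and the acinar scores of chow and HFD mice overlapped in both strains. The mean log2 level of macrophage markers differed between BL6 groups. It ran from -0.07 to 0.1 on chow, from 0.44 to 0.95 on HFD and from 0.45 to 1.92 with pioglitazone, so that chow and HFD mice did not overlap. The median difference for HFD was 0.63 in BL6, with none of 13 genes passing, and 0.02 in BLKS. The part of the macrophage markers in the calls below was not tested.

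The region that rose on HFD in BL6 lies upstream of Npas4, which encodes an activity-induced transcription factor. The probe at chr19:4994396-4994455, which ends in the hexamer, read -5.77, -5.08, -5.77 and -6.56 in BL6 on chow, where no array detected it. On HFD it read -3.66, -3.99, -3.92 and -3.67, detected in all 4 mice, and with pioglitazone -5.05, -6.8, -5.35 and -6.67, again without detection. The 4 HFD mice thus stood above all 8 others of the strain. Both comparisons use the same 4 HFD mice. The rise on HFD was at least 1.61-fold (adjusted p = 0.021) and the fall with pioglitazone at least 1.91-fold (adjusted p = 0.0043). In BLKS every array was well above those levels: -1.94, -1.82, -2.02 and -1.98 on chow, -2.32, -2.19, -2.19 and -1.68 on HFD, and -2.13, -2.01, -1.95 and -2.29 with pioglitazone. BLKS groups overlapped, with -0.15 for HFD (adjusted p = 0.94) and 0.0 for pioglitazone. The strain difference in either response did not pass (adjusted p = 0.15 for both), so the responses were not shown to differ, and its size is not given because 2 BL6 groups were not detected.

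The other probes of the name, at 4994327 and 4994464, did not pass for HFD or the drug in BL6, where 0 and 1 of 12 arrays detected them. In the next region, chr19:4991356-4993113, the probe at 4991811 read -4.09, -4.62, -4.93 and -3.86 on HFD and -5.38, -5.97, -6.9 and -5.37 with pioglitazone in BL6. The fall passed (adjusted p = 0.046) and the groups did not overlap, but only 1 of 4 and 0 of 4 arrays detected the probe. Most values of both groups are thus near background, where levels have no order, and no size is given. Npas4 itself changed by 1.48 ± 0.29 on HFD (adjusted p = 0.078) and was lower with pioglitazone in BL6 (-1.79 ± 0.29, adjusted p = 0.011). Between strains, 11 of 12 region probes upstream of Npas4 were higher in BLKS. Those detected on all 24 arrays differed by 0.47, 0.71 and 3.0, and the remaining one differed by -0.09 (adjusted p = 0.49). Npas4 was higher by 3.86 ± 0.17 (adjusted p = 4.5e-14). The HFD call was lost without BL6 chow mouse 1 or 3 or BL6 HFD mouse 3 or 4 (adjusted p 0.054 to 0.075), and with the acinar score in the fit, with normexp, with only the groups compared or without arrays of high lymphocyte score. The drug call at 4991811 was lost in 17 of 24 omissions of 1 mouse (adjusted p 0.054 to 0.12).

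The region that fell on HFD in BL6 lies near Mcl1, a survival gene of the Bcl2 family, on the opposite strand. The probe at chr3:95457377-95457436, in region chr3:95457337-95458070, read -2.89, -2.94, -2.82 and -2.98 on chow and -3.65, -3.51, -3.21 and -3.41 on HFD. The 4 HFD mice lay below the 4 chow mice, on the same slide, a difference of -0.54 ± 0.08 (adjusted p = 0.018). With pioglitazone the levels were -3.23, -3.07, -3.22 and -3.16. In BLKS it read -1.06, -1.18, -1.14 and -0.92 on chow and -1.33, -1.23, -1.24 and -1.31 on HFD, also without overlap, but the difference of -0.2 did not pass (adjusted p = 0.48). Averaged over strains it was -0.37 ± 0.06 (adjusted p = 0.023), while Mcl1 changed by 0.06 in BL6. Without BL6 chow mouse 1, 2 or 3 or BL6 HFD mouse 2 the BL6 call was lost (adjusted p 0.058 to 0.07). The averaged call was lost on leaving out any one of 9 mice (adjusted p 0.051 to 0.08). Between strains the probe was higher in BLKS by 1.92 ± 0.05 (adjusted p = 9.4e-18), with 10 of 12 region probes within 20 kb higher and Mcl1 higher by 2.5 ± 0.12.

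In BLKS the region that rose on HFD was chr6:67155508-67216941 on the reverse strand, with Serbp1, an mRNA-binding protein gene, 56513 bp away. The probe at 67171313 read -3.64, -3.44, -3.56 and -3.05 on chow, -1.87, -2.27, -2.15 and -2.2 on HFD, and -2.35, -2.33, -2.42 and -2.26 with pioglitazone. All 8 mice on HFD, with or without the drug, stood above the 4 on chow (HFD 1.3 ± 0.23, adjusted p = 0.043). BL6 arrays ranged from -5.26 to -4.14 with no such order (HFD -0.18, adjusted p = 0.97), and the strain difference in response, 1.48 ± 0.32, did not pass (adjusted p = 0.19). Leaving out any one of 16 mice lost the BLKS call (adjusted p 0.054 to 0.17). BLKS chow and HFD arrays were on different slides, so slide and diet cannot be told apart here.

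Other regions of smallest p did not pass for the diet. In BL6, chr15:83091086-83093818 read -2.75, -3.05, -2.9 and -2.72 on chow and -3.99, -5.69, -4.24 and -4.13 on HFD, without overlap (-1.66, adjusted p = 0.063). In BLKS, chr2:67411703-67412293 read -4.23, -4.48, -4.3 and -5.37 on chow and -6.66, -6.66, -5.74 and -5.52 on HFD, where no array detected it (adjusted p = 0.098). For the strain difference in the diet response the closest was a region 247 bp from Gas5, a long noncoding RNA that hosts small nucleolar RNAs. At chr1:162965309-162970704 it read -2.62, -2.77, -2.36 and -2.38 on chow and -2.94, -3.19, -3.0 and -3.09 on HFD in BL6, but -2.34, -1.88, -2.06 and -1.7 and then -1.64, -1.66, -1.59 and -1.71 in BLKS. The BL6 mice were lower on HFD and 3 of 4 BLKS chow mice were below every BLKS HFD mouse, a difference in response of 0.86 ± 0.16 (adjusted p = 0.11).

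Pioglitazone changed 7 region probes in BL6, 2 higher (background 0.055%) and 5 lower (background 0.0641%), together 0.11% beside a background of 0.119%, with 548 at an unadjusted p under 0.05. The share was close to the background. In BLKS no region probe passed in limma (background 0.00305%, 258 at an unadjusted p under 0.05), averaged over strains none passed (background 0.0153%, of which 0.0122% higher; 339), and none passed for the strain difference in the drug response (background 0.0%, 443). BL6 HFD and pioglitazone arrays were on different slides, so slide and drug cannot be told apart in that strain, and lymphocyte markers differed by a median of 1.05 there with none of 19 passing. With the slide as a random block (estimated slide correlation -0.013) 8 region probes were called. Such a block cannot separate slide from drug here, because these BL6 groups share no slide.

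The steadiest drug calls with 2 probes of 1 region lay downstream of Gm2115, a gene on the same strand. In region chr7:91558475-91733625 the probe at chr7:91729316-91729375 read -3.21, -3.66, -3.92 and -4.07 in BL6 on HFD and -5.87, -6.69, -5.25 and -5.98 with pioglitazone, where no array detected it. On chow it had been -3.08, -2.88, -3.19 and -3.21. All 4 drug-fed mice lay below the 8 other BL6 mice, at least 2.0-fold below HFD (adjusted p = 0.00082). Those 8 mice were all on slide 1 and the 4 drug-fed mice on slides 2 and 3. The chow mice therefore do not help to tell drug from slide. In BLKS it read -3.06, -3.13, -3.73 and -2.61 on HFD and -3.75, -2.58, -2.88 and -2.87 with the drug, and the groups overlapped. The strain difference in response did not pass (adjusted p = 0.067). A further probe of the region, at 91729604, read -2.41, -3.04, -2.72 and -2.72 on HFD and -4.77, -4.14, -4.2 and -3.93 with the drug (-1.54 ± 0.23, adjusted p = 0.0043). The 5 tested probes of the region all had lower means with the drug, and 2 of them passed. Gm2115 changed by -1.24 ± 0.25 (adjusted p = 0.055). Each of the 5 was higher in BLKS than in BL6, by 0.92 to 1.49, as was Gm2115, by 1.01 ± 0.14. Both calls were kept in every omission of 1 mouse and lost when only the groups compared were fitted or with normexp background correction.

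The other regions that passed for the drug in BL6 lay apart from each other. Region chr11:119250824-119286324, 21376 bp upstream of the ubiquitin ligase gene Rnf213, read -0.86, -0.9, -1.15 and -0.91 on HFD and -1.52, -1.59, -2.05 and -1.64 with pioglitazone, without overlap (-0.75 ± 0.12, adjusted p = 0.0082). In BLKS the difference was 0.14. Region chr1:194659312-194661407, 11898 bp downstream of Sertad4, whose printed probe holds the hexamer, read -5.95, -4.07, -5.04 and -5.2 on HFD and -3.73, -3.32, -2.45 and -2.12 with the drug. All drug-fed mice lay higher (2.16 ± 0.35, adjusted p = 0.01), with detection on 1 and 3 of 4 arrays. Region chr11:53596919-53672731, 1952 bp downstream of the long noncoding RNA gene Gm12216, read -3.23, -3.27, -2.78 and -3.62 on HFD and -2.12, -2.13, -2.12 and -2.61 with the drug. It rose by 0.98 ± 0.18 (adjusted p = 0.04), as did Gm12216, by 0.64 ± 0.12 (adjusted p = 0.042), but this call was lost in 15 of 24 omissions of 1 mouse (adjusted p 0.051 to 0.1). The drug calls near Rnf213, Sertad4 and, at the hexamer probe, Npas4 were lost with only the groups compared and without arrays of high lymphocyte score, and were kept in every omission of 1 mouse. In BLKS the region of smallest p was chrX:133315875-133338600, which read -5.2, -5.41, -4.77 and -4.56 on HFD and -5.96, -6.2, -6.57 and -6.23 with the drug, with no array detecting it in either group (adjusted p = 0.084). Averaged over strains, chr6:86480265-86481192 came closest, without detection on any BL6 array (adjusted p = 0.093).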

How the data were processed

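Islet RNA of 24 mice was read on single-colour Agilent arrays with Agilent Feature Extraction 10.7.3.1, per the file headers, which gave a background-subtracted, detrended intensity per spot as deposited, not yet normalized between arrays. The raw and local background intensities deposited with it served as an alternative. The authors' deposited value table gives a ratio on a linear scale, found from the values to be processed intensity over the array median, with 0 of its columns unmapped.

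Outlier spots were left out (24 region probes) and no spot was saturated. The 75th percentile of an array, subtracted on the log2 scale, lay between an intensity of 217.931 and 403.272, and the number of arrays limits the precision. Probes well above background on at least 4 of 24 arrays (32750) entered limma 3.58.1 (lmFit and eBayes with 6 group means, R 4.3.3, data.table version 1.17.8). The Benjamini-Hochberg adjustment ran over all of them at 0.05 for 9 contrasts. The drug contrast is HFD with pioglitazone minus HFD. All adjusted p-values are from this fit, which was checked on simulated data.

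Named regions were the 8 highest and 8 lowest for the strain among non-overlapping probes, the 4 highest bounds per strain, up to 5 per direction for diet and drug (the 3 of smallest p where fewer passed), 6 regions of many probes, and those within 100 kb of islet genes. The members and lists were chosen with earlier results of these data known. Genes are named as in the array design, with current symbols from RefSeq GRCm38.p6. Probe positions are those of the files, on mm9. Mouse numbers did not pair the samples: over 60 same-number pairs of arrays the median correlation of deviations was 0.039. The labels do not say whether mice shared a cage or an islet preparation, so p-values measure only the spread between these arrays. Alternatives concerned scaling, background correction, the filter, probe choice, slide, mouse number, marker scores and single mice.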

Additional observations from a re-analysis of the deposited data

Results flagged for a closer look

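In 8 of 142 groups of 4 mice examined, 1 mouse stood apart from the other 3 by more than Dixon's 95% limit, and chance alone gives about 1 in 20. BLKS HFD mouse 1 had 5087 detected region probes, against 5488 to 5533 in the others of its group. In chr17:22013350-22095775, BL6 chow mouse 2 read -0.78, below the others at -0.13 to -0.1. In chr9:68349343-68411643, BL6 chow mouse 4 read -2.4 (others -2.13 to -2.09), and in chr15:41288197-41522572, BL6 pioglitazone mouse 3 read -2.26 (others -1.84 to -1.76). BLKS pioglitazone mouse 1 read -2.03 in chr15:83091086-83093818, above -2.31 to -2.28. BL6 pioglitazone mouse 4 read -2.61 in chr11:53596919-53672731, below -2.13 to -2.12 in the others, in a group for which a drug call is reported. BLKS HFD mouse 4 read -4.19 in chr1:58443698-58449898 (others -3.81 to -3.79). BLKS chow mouse 3 read -4.22 in chr6:86480265-86481192 (others -3.77 to -3.68).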

How the results depend on the processing

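No result changed sign under any setting run. For the strain, 3962 of 6344 tested region probes were called. Among probes detected on all arrays it was 2390 of 3574, and with 1 probe per name 1758 of 2922. On slides 2 and 3 (chosen after seeing the data) it was 1893 of 6344. The shares over all probes under these settings are not given. Leaving out 1 mouse gave 3840 to 4034. All 672 alternative values of the regions named for the strain kept their direction and their call. Most of these regions were named for large called differences, so a kept call was likely beforehand. Their sizes did change. Over all settings the log2 difference ran from 2.47 to 6.19 for the Slc7a5-side probe and from -6.56 to -2.52 for the Zfp820-side probe. It ran from -4.53 to -1.06 in chr9:68349343-68411643 and from -4.22 to -1.07 in chr15:41288197-41522572.

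The HFD calls were few and unsteady. In BL6 the 2 calls became 0 with normexp, with only the groups compared or without arrays of high lymphocyte score (an alternative chosen after seeing the data), and 1 without a filter, with probes detected on all arrays or with the acinar score. In BLKS the 1 call became 10 with normexp, 3 with the percentile over detected probes, 4 with the lymphocyte score, and 0 with quantile normalization, probes detected on all arrays, 1 probe per name, the authors' table, only the groups compared, the acinar score or without arrays of high lymphocyte score. The 1 call averaged over strains became 0 with quantile normalization, normexp, the percentile over detected probes, no filter, the authors' table, only the groups compared, the acinar score or without arrays of high lymphocyte score. For pioglitazone in BL6 the 7 calls became 3 with normexp, 2 among probes detected on all arrays, 4 with 1 probe per name, 0 with only the groups compared and 4 without arrays of high lymphocyte score. That last setting gave 1 call each for the drug over both strains and for the strain difference in the drug response, against 0.

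Leaving out 1 mouse gave 0 to 5 calls for HFD in BL6, 0 to 3 in BLKS and 0 to 1 over both. In BL6 the count was 0 without chow mouse 1 or 3, 1 without chow mouse 2 or HFD mouse 2, 3 or 4, 4 without HFD mouse 1 and 5 without pioglitazone mouse 3. For pioglitazone it gave 5 to 12 in BL6 (12 without HFD mouse 3), 0 to 1 in BLKS (1 without chow mouse 3), 0 to 2 over both (2 without BL6 pioglitazone mouse 1 or BLKS HFD mouse 3), 0 to 0 for the strain difference in the HFD response and 0 to 2 for that in the drug response (2 without BL6 HFD mouse 4). Mouse numbers are no pairing here. With them as a replicate block, 4019 region probes were called for the strain, 0 for HFD in BLKS, 0 for HFD over both strains, 3 for HFD in BL6 and 6 for pioglitazone in BL6. The cause of these shifts was not tested.

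The looser flag of the scanner software, signal significantly above background, gave a median of 9380 detected region probes per array in place of 5306.5. Levels near background have no order among themselves, which limits most diet and drug results above.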
